A study of Mus musculus with 98 samples.

Results

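The 9 genes described here make, export, degrade and sense sphingosine-1-phosphate (S1P), and they were followed over the stromal cells of the mouse thymus. They were taken by name from 22231 genes listed for single cells of nonepithelial thymic stroma (NETS) at 5 ages, from 20760 genes listed for single cells of newborn thymic stroma, and from 39179 genes of a bulk RNA sequencing table. All 9 were listed in each of these. The age series held 8 libraries of Ter119-CD45-EpCAM- cells of wild type C57BL/6 thymi, with 1 library each at embryonic days E12.5 and E13.5, made from thymi pooled over litters, and 2 each at E16.5, the day of birth (P0) and 4 weeks (W4). The newborn set held 3 libraries labelled Tbx1+/-Crkl+/-, compound heterozygotes that carry a lacZ insertion in 1 Tbx1 allele and a null allele of Crkl, and 3 of wild type littermates, all of Ter119-CD45- cells that were fixed before capture and kept their epithelium. The bulk set held 84 libraries of sorted CD45- cells from wild type mice, 6 in each of 14 groups. At P0 and W4 these were CD31+ endothelium, Ly51+gp38- cells (pericytes and vascular smooth muscle), gp38+CD26+ capsular fibroblasts, gp38+CD26- cells (enriched for medullary fibroblasts), cortical thymic epithelium (cTEC) and medullary thymic epithelium (mTEC). High and low mTEC fractions, named mTEChi and mTEClo in the titles without their marker, were sorted at W4 alone.

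S1P is a lipid signal that lymphocytes follow out of tissues where its level is low into blood and lymph where it is high, and mature thymocytes leave the thymus in this way. The sphingosine kinases Sphk1 and Sphk2 phosphorylate sphingosine to S1P inside cells, and Spns2 carries S1P across the plasma membrane, a step for which endothelium is known. The lyase Sgpl1 cleaves S1P irreversibly within cells, whereas the membrane phosphatases Plpp1 and Plpp3 dephosphorylate it, with other lipid phosphates, at the cell surface. S1pr1, S1pr2 and S1pr3 are G protein-coupled S1P receptors, of which S1pr1 maintains endothelial junctions and, on thymocytes, drives egress, S1pr2 couples to cytoskeletal contraction, and S1pr3 is known from smooth muscle and fibroblasts.

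Levels are in CPM, the reads or unique molecular identifiers (UMIs) of a gene after those of all genes in the same library, or in the cells of the same library and subtype, were scaled to a total of 1000000. Changes are log2 fold changes ± SE from edgeR's quasi-likelihood test, fitted on all genes that passed a filter on low counts, and a change was called at a Benjamini-Hochberg adjusted p under 0.05 over all those genes. "Subtype" means a cluster that the authors had named, and "population" a sort gate. The age series libraries held 1997 to 6587 cells and 28583048 to 93040640 UMIs, and the newborn libraries 1687 to 5661 cells and 4978011 to 31418527 UMIs, with median UMIs per cell of 10005 to 14031 and of 2391 to 4686. The bulk libraries held 5785352 to 15852166 gene counts, apart from 1 gp38+CD26+ W4 library of 25702 gene counts, which was left out, so that this group had 5 libraries. The endothelial marker list followed the sorts. Summed endothelial markers averaged 5455 CPM at P0 and 5798 CPM at W4 in CD31+ cells, and their mean was at most 88.9 CPM in every other group. Sums of other lists outside their own gates are given below, and some were higher at W4 than at P0. Of the targeted genes, Tbx1 stood at 0, 0 and 0.872 CPM (0, 0 and 8 UMIs) in the 3 libraries labelled as compound heterozygotes and at 1.79, 0.441 and 0.605 CPM (13, 6 and 19 UMIs) in those labelled wild type, and Crkl stood at 24.1, 23.6 and 26.9 CPM against 23.0, 25.1 and 18.4 CPM, so neither gene separated the labels. Libraries of a group were taken as its replicates. Where nothing states that they came from separate animals, the p-values measure the spread between these libraries, which may be technical. Bulk libraries of different populations were fitted as independent, and whether they share mice is not given in the sources used here.

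The genes lie apart in the genome (build GRCm38), and only the shared location of Sphk1 and Spns2 on chromosome 11 and of Plpp1 and S1pr3 on chromosome 13 puts any on the same chromosome. Spns2 spans chr11:72451638-72489904 on the minus strand, Sgpl1 chr10:61098642-61147703 on the minus strand, Plpp3 chr4:105157347-105232764 on the plus strand and S1pr1 chr3:115710433-115715072 on the minus strand. Exons of 5 members overlap exons of a gene on the other strand, by 45 to 539 bases (Plpp1 with Mtrex, S1pr3 with Gm32834, Sphk1 with Gm29292, Sphk2 with Dbp and Rpl18, Spns2 with Mybbp1a). The use of strand in the counting is not given in the sources used here, so reads from those bases cannot be assigned to either gene. RefSeq (GRCm38.p6) gave promoters for 7 of the 9 genes, and not for S1pr1 or Plpp1. The 250 bases before the start are shown for the exporter, the lyase and the phosphatase Plpp3, because their highest levels in sorted cells lay in endothelium (Spns2), in epithelium (Sgpl1) and in endothelium and capsular fibroblasts (Plpp3). Capitals mark a match, on either strand, to CCGGAA, the core bound by ETS factors, or to CCACCC, the core bound by KLF factors.
Spns2: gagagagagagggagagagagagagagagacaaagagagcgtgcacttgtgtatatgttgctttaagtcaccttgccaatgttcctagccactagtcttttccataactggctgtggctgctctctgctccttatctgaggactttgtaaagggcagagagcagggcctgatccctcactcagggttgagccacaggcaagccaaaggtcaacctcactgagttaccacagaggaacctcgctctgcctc
Sgpl1: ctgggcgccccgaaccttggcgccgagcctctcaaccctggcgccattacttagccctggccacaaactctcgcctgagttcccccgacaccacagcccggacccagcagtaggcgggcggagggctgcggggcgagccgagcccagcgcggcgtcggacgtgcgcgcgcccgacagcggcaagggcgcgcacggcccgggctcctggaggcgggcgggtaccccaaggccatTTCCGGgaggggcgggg
Plpp3: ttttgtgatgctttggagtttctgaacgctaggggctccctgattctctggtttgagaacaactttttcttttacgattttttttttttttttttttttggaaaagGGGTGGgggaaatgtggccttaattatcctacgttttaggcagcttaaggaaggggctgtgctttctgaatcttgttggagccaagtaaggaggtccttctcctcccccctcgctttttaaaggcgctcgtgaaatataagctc
The Spns2 stretch (chr11:72475028-72475277, minus strand) lies inside the annotated gene, upstream of the RefSeq start, and held no match at a GC content of 51.6%. The Sgpl1 stretch (chr10:61147685-61147934, minus strand) was the richest in GC of the 3, at 74.8%, and held 1 CCGGAA match. The Plpp3 stretch (chr4:105157097-105157346, plus strand) had a GC content of 42.4% and held 1 CCACCC match. Of 32841 RefSeq promoters of the same length, 12.03% held CCGGAA and 28.1% held CCACCC, and the median GC content was 52.4%. A match is a description of the letters, not a binding site.

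In sorted cells, the exporter Spns2 and the receptor S1pr1 had their highest level in CD31+ endothelium, the lyase Sgpl1 in thymic epithelium, and the receptors S1pr2 and S1pr3 outside endothelium. S1pr1 in CD31+ libraries ranged from 1343 through a median of 1590 to 2108 CPM at P0 and from 1261 through 1419 to 2005 CPM at W4. The next highest group, W4 mTEC, averaged 72.8 ± 43.03 CPM (SD, n = 6), and no library of any other nonepithelial population reached the CD31+ range at either age. Spns2 in CD31+ cells stood at 20.3, 41.2 and 56.0 CPM (lowest, median, highest) at P0 and at 57.8, 67.7 and 101.1 CPM at W4. Outside endothelium Spns2 was scarce. Its means were 0.951 to 6.71 CPM in the other nonepithelial populations at P0 and 4.18 to 11.4 CPM at W4, and 4 of 6 cTEC libraries had no Spns2 read at either age. Of 13 neighbouring pairs in the order of the 14 group means, 2 of the S1pr1 pairs and 2 of the Spns2 pairs differed by more than their spread, so most of the order was not resolved.

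**Figure D1:**
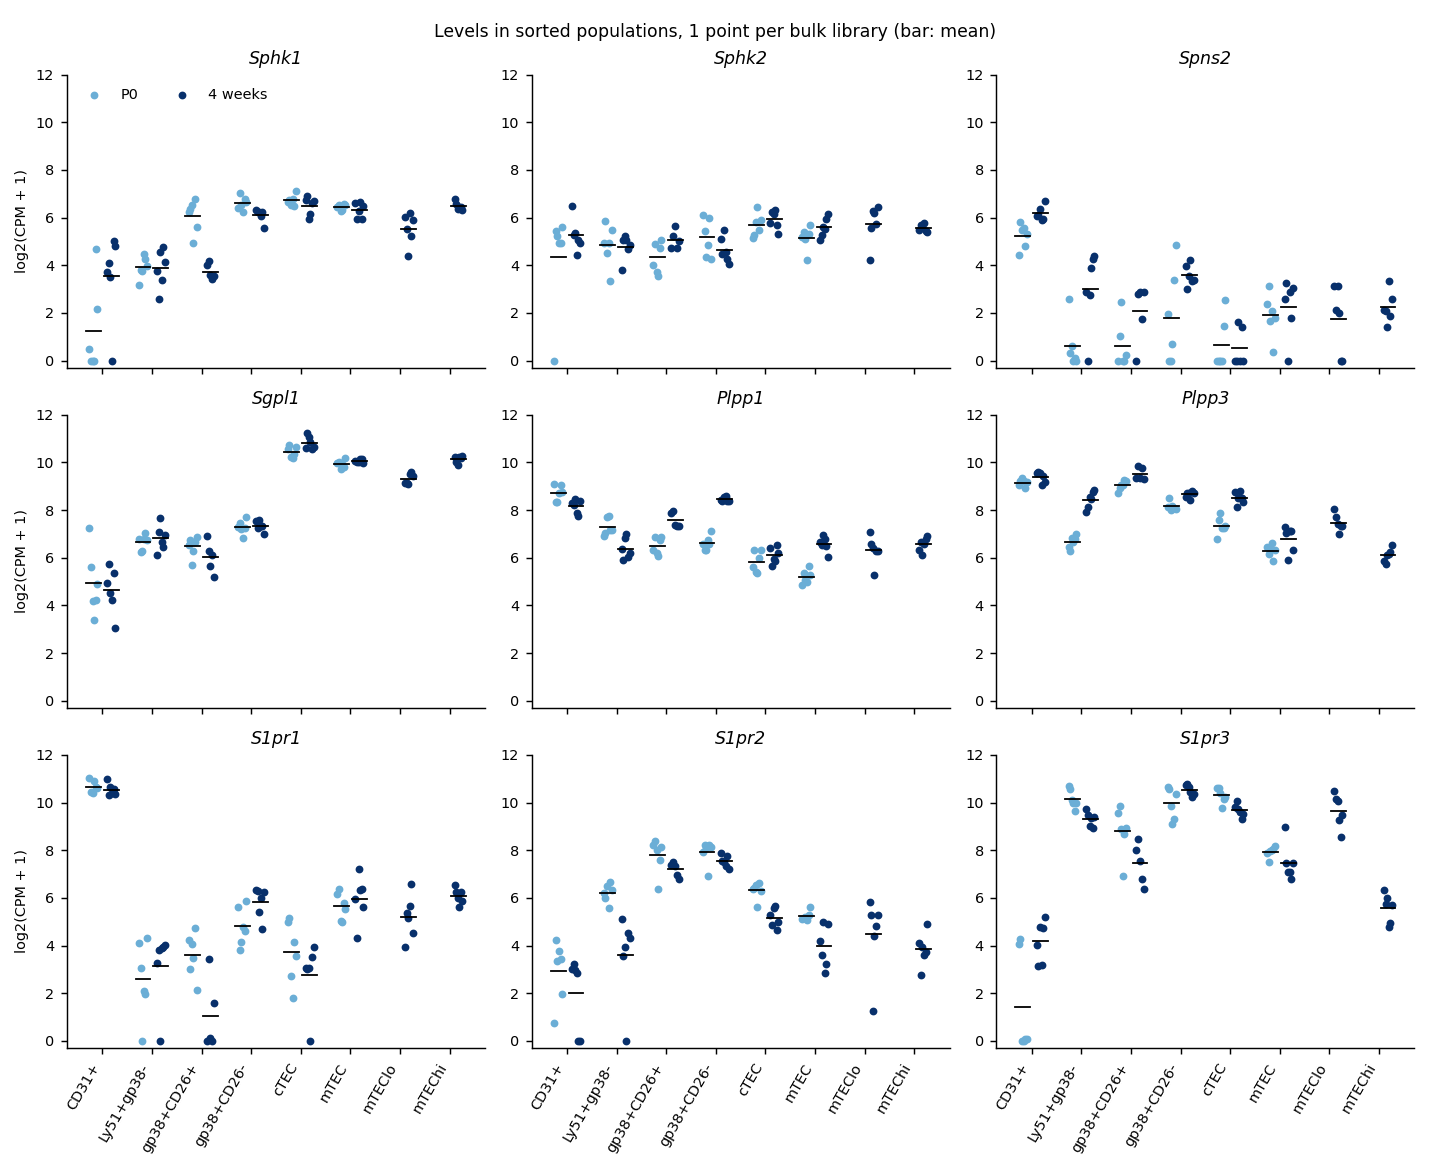
Level of the 9 S1P genes in the sorted populations, as log2(CPM + 1), at P0 and W4, with a point for each library (6 per group, 5 for gp38+CD26+ at W4) and a bar at the group mean. S1pr1 and Spns2 are highest in CD31+ cells, Sgpl1 in the epithelial groups, and S1pr3 is lowest in CD31+ cells, at 0 to 18.3 CPM at P0 and 7.94 to 36.0 CPM at W4, and high in gp38+CD26- cells, cTEC and mTEClo.

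Both endothelial genes differed from the mean of the other 3 nonepithelial populations at both ages. S1pr1 was higher in CD31+ cells by 6.69 ± 0.55 at P0 (adjusted p = 8.14e-17, edgeR) and by 6.86 ± 0.58 at W4 (3.58e-16). For Spns2 the difference was 4.28 ± 0.94 at P0 (0.000184) and 3.03 ± 0.94 at W4 (0.0107). Every CD31+ library lay above every library of the other 3 populations for S1pr1 at both ages, for Plpp1 at P0 and for Spns2 at W4, against 3.07% of all genes at P0 and 3.65% at W4. The 2 receptors other than S1pr1 showed the opposite pattern. S1pr3 had 0, 0.0683 and 18.3 CPM (lowest, median, highest) in CD31+ cells at P0, with 2 libraries at 0, and 7.94, 20.2 and 36.0 CPM at W4, at both ages below every library of the other populations (background 2.62% and 2.14%), and S1pr2 averaged 8.82 CPM at P0 and 4.75 CPM at W4. Their differences in CD31+ cells were -7.37 ± 0.72 and -5.00 ± 0.63 for S1pr3 and -4.32 ± 0.64 and -4.17 ± 0.63 for S1pr2, at P0 and W4 in that order. Over the 4 nonepithelial populations and both ages, 43 of 72 member tests were called, 26 higher and 17 lower, against 18.8% of all tests on 20417 genes (12.1% higher, 6.72% lower), and the median difference was -0.05 over the members and between -0.01 and 0 over all genes of each comparison. In CD31+ cells 8 of 9 members were called at P0 (background 27.5%) and 7 of 9 at W4 (background 25.1%). Each population was part of the mean against which the others were set, so the calls are not independent of each other.

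The 2 surface phosphatases were both high in endothelium, and each also in 1 kind of fibroblast. Plpp1 in CD31+ cells had 318, 426 and 549 CPM (lowest, median, highest) at P0 and exceeded the mean of the other populations by 1.85 ± 0.16 (adjusted p = 1.84e-16, edgeR). At W4 gp38+CD26- cells were the highest for Plpp1, at 330, 337 and 386 CPM, and CD31+ cells followed at 214, 305 and 350 CPM, so the ranges overlapped. Plpp3 was highest in CD31+ cells and in gp38+CD26+ cells. CD31+ cells averaged 571 ± 57.3 CPM at P0 and 680 ± 98.5 CPM at W4 (SD, n = 6), and gp38+CD26+ cells 529 ± 70.9 CPM (n = 6) and 737 ± 134.5 CPM (n = 5). Against the mean of the other 3 populations, Plpp3 was higher in gp38+CD26+ cells at both ages (1.22 ± 0.14 and 0.82 ± 0.15) and in CD31+ cells at P0 (1.12 ± 0.14), while its W4 difference in CD31+ cells, 0.37 ± 0.14 (adjusted p = 0.0471), was not called without gp38+CD26+ W4 library S122, S127 or S132 (0.36 in each case, adjusted p = 0.0759, 0.0727 and 0.0700). Ly51+gp38- cells were the lowest in Plpp3 at P0, with 76.1, 105 and 124.8 CPM, each library below every library of the other 3 populations (background 0.186%).

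Per kilobase of exon, on which members can be compared with each other, S1pr1 was the highest member in CD31+ cells, at 542 ± 97.1 CPM per kilobase at P0 and 495 ± 92.0 at W4 (SD, n = 6). Plpp1 (245 and 166) and Plpp3 (181 and 215) followed, and the exporter Spns2 stood at 9.46 and 17.7 CPM per kilobase. Sgpl1, the lyase, reached 230 ± 36.1 CPM per kilobase in P0 cTEC and 300.2 ± 59.2 in W4 cTEC, and S1pr3 244 and 335 CPM per kilobase in gp38+CD26- cells at P0 and W4.

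The fibroblast and mural gates were each set against a mean of the other populations that included CD31+ cells. S1pr3 and S1pr2 were low in CD31+ cells, and their differences in the other gates include that low level. At P0 the gates overlapped each other. S1pr3 had 809 to 1665 CPM in Ly51+gp38- cells, and S1pr2 82.2 to 333 CPM in gp38+CD26+ and 121 to 297 CPM in gp38+CD26- cells. S1pr3 in gp38+CD26- cells ranged from 553 through 1110 to 1596 CPM at P0 and from 1194 through 1489 to 1773 CPM at W4, when every library lay above every library of the other 3 nonepithelial populations (background 1.08%), and its difference was 2.85 ± 0.42 at P0 and 3.52 ± 0.42 at W4. Ly51+gp38- cells were also higher in S1pr3, by 2.92 ± 0.42 and 1.77 ± 0.43. S1pr2 was higher in both fibroblast gates at both ages, by 2.23 ± 0.44 to 3.12 ± 0.44, with means of 148.3 to 251 CPM. Sphk1 in gp38+CD26- cells had 73.6, 94.5 and 130 CPM at P0 and 46.7, 73.9 and 78.4 CPM at W4, above the mean of the other populations by 2.51 ± 0.46 and 2.29 ± 0.47, and its W4 libraries too lay above all those of the other populations. Sgpl1 was called higher in gp38+CD26- cells (1.10 ± 0.25 and 1.47 ± 0.25) and lower in CD31+ cells (-1.41 ± 0.28 and -2.10 ± 0.30). Sphk2 passed in none of its 8 comparisons, with group means between 20.8 and 61.4 CPM in all 14 groups and no neighbouring pair apart.

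The lyase Sgpl1 was the member that most set epithelium apart. Its libraries had 1158, 1404 and 1700 CPM (lowest, median, highest) in P0 cTEC, 1515, 1728 and 2395 CPM in W4 cTEC, 848, 991 and 1157 CPM in P0 mTEC and 1009, 1059 and 1128 CPM in W4 mTEC. All of these lay far above the nonepithelial groups, whose Sgpl1 means were 28.2 to 162 CPM. Between cTEC with mTEC and the 4 nonepithelial populations, Sgpl1 differed by 3.604 ± 0.19 at P0 (12.2-fold, adjusted p = 4.33e-27, edgeR) and by 4.00 ± 0.20 at W4 (adjusted p = 1.15e-28). Sphk1, which makes S1P, was also higher in epithelium (1.74 ± 0.36 at P0, 1.82 ± 0.37 at W4), whereas both surface phosphatases were lower (Plpp1 -1.89 ± 0.14 and -1.48 ± 0.14, Plpp3 -1.54 ± 0.12 and -1.48 ± 0.12), and Spns2 was lower at W4 (-3.14 ± 0.91, adjusted p = 0.00311) and not called at P0 (-1.15 ± 0.82). Over these comparisons and those within epithelium, 20 of 45 member tests were called, against 33.2% of all tests. Differences between epithelium and nonepithelial stroma were common among all genes (39.7% at P0 and 42.7% at W4, with medians of 0.37 and 0.48).

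Within epithelium, S1pr3, Plpp3 and Plpp1 differed between cTEC and mTEC at both ages and S1pr1 at W4. S1pr3 had 881, 1270 and 1578 CPM in P0 cTEC and 632, 817 and 1071 CPM in W4 cTEC, higher than in mTEC by 2.26 ± 0.59 (adjusted p = 0.00191, edgeR) and 1.88 ± 0.58 (0.00924). Plpp3 was higher in cTEC by 0.97 ± 0.18 and 1.49 ± 0.18, and S1pr1 was lower at W4 (-3.38 ± 0.77, 0.0005). Plpp1 was called in opposite directions at the 2 ages, higher in cTEC at P0 (0.57 ± 0.21, 0.0280) and lower at W4 (-0.63 ± 0.21, 0.0150). For Sgpl1 the cTEC difference, 0.39 ± 0.32 and 0.63 ± 0.32, was not called. All genes together had a median of -0.44 at P0 and -0.33 at W4 in this comparison (32.1% and 32.2% called). Between mTEChi and mTEClo at W4 (background 19%), S1pr3 was the member that differed most: it had 26.1, 52.2 and 80.1 CPM in mTEChi and 372, 893 and 1453 CPM in mTEClo, with no overlap, a difference of -3.91 ± 0.63 (3.58e-06). The mTEClo range of S1pr3 thus overlapped that of W4 cTEC. Sgpl1 was higher in mTEChi, with 957, 1168 and 1221 CPM against 541, 631 and 773 CPM (1.06 ± 0.32, 0.0145), and Plpp3 was lower (-1.14 ± 0.18). The median over all genes was 0.26.

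Between birth and 4 weeks, the phosphatases made up most of the called changes in sorted cells. They did not have the largest changes. The largest called change was that of Sphk1 in gp38+CD26+ cells (-2.34 ± 0.69). Spns2 in Ly51+gp38- cells changed by 3.66 ± 1.39, with a larger SE, and was not called. Of 54 member tests over 6 populations, 13 were called, 10 higher and 3 lower at W4, against 9.86% of all tests (6.05% higher, 3.81% lower). The median change was 0.30 over the members and between 0 and 0.07 over all genes of each population. Plpp3 was called higher in 5 of 6 populations and Plpp1 in 3, and together they made up 9 of the 13 calls, Plpp1 in Ly51+gp38- cells being lower. Neither Sgpl1 nor Sphk2 was called in any population. All 13 called changes had the same direction within the libraries whose titles hold TXCK and within those that hold DFCK, a prefix whose meaning is not given in the sources used here. The same libraries made the pooled calls, so this agreement is not independent of them. In a sorted population, fewer cells of a type and less RNA per cell cannot be told apart.

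Plpp3 rose most in Ly51+gp38- cells, from 76.1, 105 and 124.8 CPM (lowest, median, highest) at P0 to 238, 365 and 456 CPM at W4, a change of 2.02 ± 0.19 (4.05-fold, adjusted p = 2.66e-13, edgeR) with no overlap of libraries. In cTEC it went from 109, 156.2 and 233 CPM to 278, 363 and 450 CPM (1.26 ± 0.18, 3.62e-07), again without overlap. Summed epithelial markers in the Ly51+gp38- libraries were 0.530 to 60.1 CPM at P0 and 44.9 to 444 CPM at W4, and summed fibroblast markers in cTEC were 12.7 to 129 CPM and 357 to 2584 CPM. Their part in these results was not tested. The smaller Plpp3 rises in gp38+CD26+ cells (0.65 ± 0.19), gp38+CD26- cells (0.73 ± 0.18) and mTEC (0.73 ± 0.18) were not called within either prefix taken alone, and the gp38+CD26+ rise was not called without W4 library S125 (0.55, adjusted p = 0.0808) or S131 (0.57, 0.0702). Plpp3 in CD31+ cells changed by 0.39 ± 0.18 and was not called (0.175).

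Plpp1, the other phosphatase, rose in both fibroblast gates and in mTEC. In gp38+CD26- cells its libraries went from 78.1, 93.8 and 136.7 CPM at P0 to 330, 337 and 386 CPM at W4 (2.05 ± 0.21, adjusted p = 1.01e-11, edgeR). The rise in gp38+CD26+ cells was from 65.3, 92.5 and 116 CPM to 158.01, 164 and 248 CPM (1.23 ± 0.22, 2.40e-05), and in mTEC from 27.6, 34.8 and 48.7 CPM to 63.9, 96.1 and 123 CPM (1.55 ± 0.21, 2.33e-07). In all 3 the libraries of the 2 ages did not overlap, and each was called within either prefix. Ly51+gp38- cells went the other way, from 120, 142 and 216 CPM to 57.99, 77.3 and 125.05 CPM (-0.70 ± 0.21, 0.0171), with overlap and without a call within either prefix. Over the 9 members, 10 of 54 pairs of ages did not overlap, against 7.34% of all genes.

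The remaining age calls concerned the kinase Sphk1 and the receptors. Sphk1 fell in gp38+CD26+ cells, from 29.2, 77.5 and 107.8 CPM to 9.56, 10.9 and 16.9 CPM (-2.34 ± 0.69, adjusted p = 0.0190, edgeR), with no overlap, and was not called within DFCK (-1.81, 0.451). S1pr2 fell in Ly51+gp38- cells, from 46.2, 75.9 and 99.2 CPM to 0, 16.7 and 33.97 CPM (-1.99 ± 0.61, 0.0226), a change called neither within a prefix nor from these 2 groups alone (-2.04, 0.0849). In CD31+ cells S1pr3 (1.958 ± 0.59, 0.0217) and Sphk1 (1.88 ± 0.64, 0.0452) were called higher from a P0 group with 2 and 3 libraries at 0. From these 2 groups alone neither was called (0.557 and 0.652), and Sphk1 was not called without any single one of the 5 gp38+CD26+ W4 libraries (1.84 each time, 0.0544 to 0.0550). Summed pericyte markers in the CD31+ libraries were 82.5 to 193 CPM at P0 and 572 to 1789 CPM at W4, and their part in these results was not tested. S1pr1 in gp38+CD26+ cells, with 2 of 5 W4 libraries at 0, changed by -2.28 ± 0.81 (0.0570) and by -4.51 (0.000678) without W4 library S125.

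**Figure D2:**
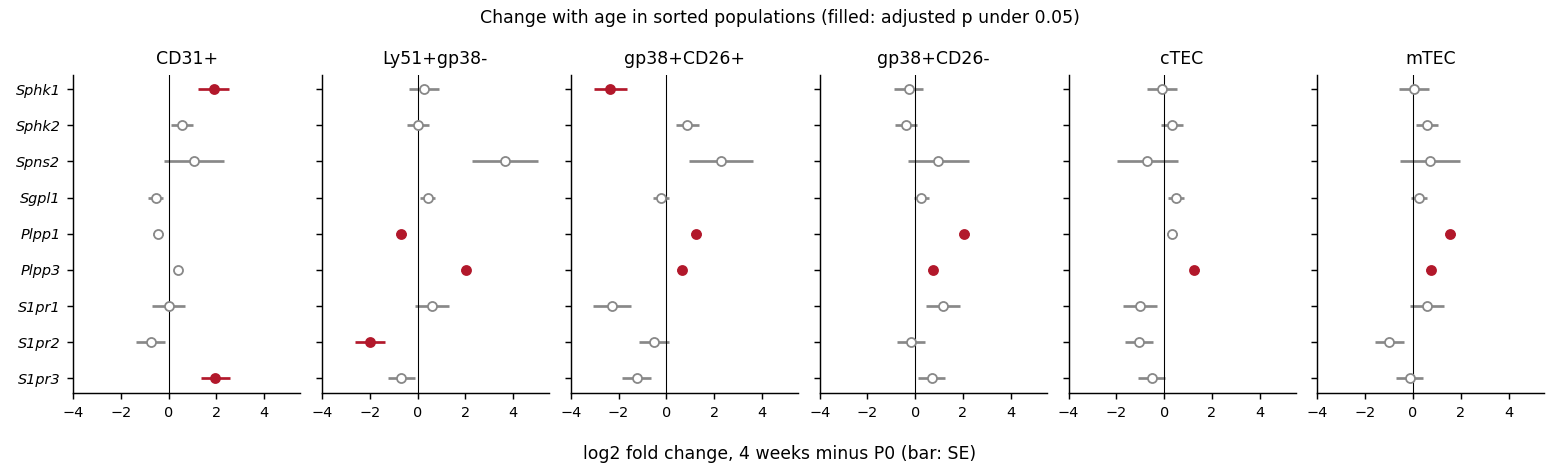
Change of the 9 S1P genes between P0 and W4 in each of 6 sorted populations, as log2 fold change with its SE, from 1 edgeR model over 83 libraries. Filled points were called at an adjusted p under 0.05: Plpp3 rose in 5 populations, Plpp1 rose in 3 and fell in Ly51+gp38- cells, and the S1pr1 change in CD31+ cells was -0.01 ± 0.69.

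Neither of the endothelial members was called with age in CD31+ cells, where the SEs came from 1 model over 83 libraries of all populations. S1pr1 changed by -0.01 ± 0.69 (adjusted p = 1, edgeR). Spns2 changed by 1.05 ± 1.26 (0.830), although its P0 and W4 libraries did not overlap (background 3.83%), and from these 2 groups alone the change was 1.003 ± 0.28 (0.0541). In the same libraries summed capillary markers averaged 2769 CPM at P0 and 1161 CPM at W4, and summed venous markers 616 CPM and 2344 CPM. Their part in these values was not tested. The changes with age differed between the 6 populations for 4 of 9 members (background 21.2%), namely Plpp1 (1.12e-12), Plpp3 (8.12e-06), Sphk1 (0.0175) and S1pr3 (0.0247).

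Single cells gave the same genes at the level of the authors' subtypes, of which the age series held 19. These levels describe clusters that were drawn from the same cells and are given without a test. Means are over libraries of all ages with at least 20 cells of the subtype, so an order of means need not be the order at 1 age. S1pr1 was highest in the arterial (EnA), venous and lymphatic (EnVL) and capillary (EnC) endothelium, at 307 ± 191.01 CPM (SD, n = 7), 183.6 ± 103.1 (n = 8) and 180 ± 120 CPM (n = 8), and the next subtype, the medullary fibroblasts MedFb1a, stood at 12.9 ± 8.38 CPM, a gap larger than their spread. Spns2 had the same 3 subtypes first in another order, EnVL at 125.5 ± 53.97, EnC at 81.8 ± 23.8 and EnA at 74.02 ± 24.8 CPM, followed by pericytes (Pc) at 33.5 ± 44.8 CPM, and no neighbouring pair was apart. After each cell was thinned to 2000 UMIs, a Spns2 UMI was found in 21.7% of EnVL, 14.6% of EnC, 12.6% of EnA, 5.20% of Pc and 0.105% of CapFb4 cells (66.6%, 53.1%, 43.2%, 14.05% and 1.02% before thinning, at median depths of 11886, 12069.5, 8883, 8445 and 17581 UMIs). Endothelium held 9.49% of all UMIs of the series, 68.8% of S1pr1 UMIs and 45.7% of Spns2 UMIs.

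The other receptors and Plpp3 lay elsewhere. Over all ages, S1pr3 had its highest means in the medullary fibroblasts MedFb1b (122.01 ± 75.3 CPM), MedFb1a (104 CPM) and MedFb2b (103.2 CPM), and its lowest in endothelium, at 3.49 to 6.50 CPM. Among the subtypes between, vascular smooth muscle (VSM) averaged 78.5, neural crest cells 71.4 and Pc 69.7 CPM. Neural crest cells had 138 and 116 CPM at P0, from 59 and 23 UMIs. VSM lay above MedFb1b at E16.5 and P0, with 123.7 and 124.1 CPM against 71.4 and 82.1 CPM at E16.5 and 95.6 and 120 CPM against 87.9 and 94.7 CPM at P0, and below it at E13.5 (32.9 against 56.8 CPM). S1pr2 ranged from 71.4 ± 15.2 CPM in MedFb1b to 4.65 CPM in EnVL. Plpp3 had its highest means in the capsular fibroblasts CapFb4 (582 ± 345 CPM), EnC (483 ± 314 CPM) and CapFb3 (460 CPM) and stood at 56.4 CPM in Pc. Plpp1 had its highest means in EnA (248 ± 81.1 CPM) and EnC (228 ± 90.6 CPM), although at W4 MedFb1b, with 358 and 372 CPM, lay above EnA (237 and 218 CPM) and EnC (284 and 334 CPM), and the lowest Sgpl1 levels, 6.98 to 9.08 CPM, were those of the 3 endothelial subtypes. Sphk1 averaged 28.4 CPM in neural crest cells (NC), 17.4 CPM in MedFb1a and 0.727 CPM in EnA, and Sphk2 11.7 to 18.02 CPM in all subtypes.

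The newborn libraries added epithelium, in 26 subtypes. Epithelial cells held 43.2% of all UMIs there, 84.1% of Sgpl1 UMIs and 60.5% of Sphk1 UMIs. Sgpl1 was highest in mature cortical epithelium (McTEC, 422 ± 78.9 CPM, SD, n = 6), mature medullary (MmTEC, 348 ± 69.6), perinatal cortical (PcTEC, 336 ± 43.6) and intertypical epithelium (ItTEC, 238 ± 45.02), and lower in proliferating (PrTEC, 156.4 ± 37.5), neural (nTEC, 138, n = 2) and post-AIRE medullary epithelium (PAmTEC, 98.5 ± 2.69, n = 3). Outside epithelium, NC cells stood at 100.3 CPM, from 4 UMIs in 1 library, thymocytes (Thy) at 90.5 CPM, and all others lower. Summed epithelial markers in newborn EnC were 317 to 677 CPM against 2795 to 5692 CPM in McTEC, and their part in the Sgpl1 level of nonepithelial subtypes was not tested. Sphk1 was highest in McTEC (49.8 ± 9.72 CPM). S1pr3 stood at 138.7 ± 16.52 CPM in PcTEC and 87.8 CPM in McTEC against 25.2 CPM in MmTEC, below VSM (213 ± 37.2) and Pc (171 ± 26.8). Among sorted W4 cells, the medullary mTEClo were also high in S1pr3. S1pr1 was again first in EnA (1008 ± 128, n = 2), EnVL (465 ± 44.0) and EnC (461 ± 92.6), and Spns2 in EnC (63.6 ± 10.2), EnVL (57.4 ± 19.1) and EnA (52.6, n = 2). Newborn cells were fixed and the age series cells were fresh, so levels were not compared between the 2 sets.

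From P0 to W4, changes of the members within subtypes were mostly upward. The 17 subtypes come from the same 2 P0 and 2 W4 libraries, so their calls are not independent of each other. Of 153 possible member tests in 17 subtypes, 10 were below the filter and 60 were called, 52 higher and 8 lower, against 27.6% of all tests (13.7% higher, 13.9% lower), and the median change was 0.45 over the members and between -0.08 and 0.01 over all genes of each subtype. Called rises were 14 for Plpp3, 10 for Plpp1, 8 for Spns2, 6 for Sgpl1, 5 each for S1pr1 and S1pr3, 2 for Sphk2 and 1 each for Sphk1 and S1pr2. By DESeq2 the count was 39. From E16.5 to P0 there were 33 calls, 29 higher and 4 lower, against 12.6% (6.63% higher, 5.99% lower), of which Plpp3 made 12, all higher. By DESeq2 the count was 16. Without E16.5 replicate 1 the edgeR count was 10, and without E16.5 replicate 2 it was 13. Over all 5 ages 74.8% of the member tests were called, where 55.3% of all tests were.

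In endothelium, S1pr1 rose after birth in all 3 subtypes. EnC, the capillary cells, had 53.9 CPM at E12.5, 72.3 at E13.5, 121.9 and 114 at E16.5, 198 and 159 at P0 and 357 and 363 CPM at W4, so that both W4 libraries lay above all earlier ones, and the W4 change was 0.96 ± 0.12 (1.95-fold, adjusted p = 0.000705, edgeR). EnVL went from 178.5 and 203 CPM at P0 to 342 and 328 CPM (0.77 ± 0.14, 0.00447), and EnA from 178 and 265 CPM, in only 29 and 31 cells, to 628 and 513 CPM (1.26 ± 0.21, 0.00116). All 3 rises were called whichever library was left out and by DESeq2. Summed endothelial markers were 3121 and 3288 CPM at P0 and 4058 and 4144 CPM at W4 in EnC, 2757 and 3112 CPM and then 4102 and 4371 CPM in EnVL, and 2577 and 2719 CPM and then 2783 and 3108 CPM in EnA. In EnA, summed pericyte markers were 116 and 249 CPM at P0 and 751 and 2620 CPM at W4, and summed fibroblast markers 150.5 and 3860 CPM and then 517 and 531 CPM. Each pair of marker sums, here and below, gives the lower first, whereas pairs of gene levels follow the replicate number. The pairs thus do not match by library. Summed thymocyte markers were 26.4 and 39.1 CPM at P0 and 84.7 and 147.1 CPM at W4 in EnC, 22.0 and 42.6 CPM and then 50.7 and 94.6 CPM in EnVL, and 19.6 and 29.0 CPM and then 79.04 and 141.9 CPM in EnA. The part of these markers in the results was not tested. In the sorted CD31+ cells the S1pr1 change over the same ages was -0.01 ± 0.69, with an SE from 1 model over 83 libraries of all populations. The CD31+ libraries themselves had 1343 to 2108 CPM at P0 and 1261 to 2005 CPM at W4, so the ages overlapped. Plpp3 in EnC went from 148.3 and 138 CPM at E12.5 and E13.5 to 275 and 276 at E16.5, 603 and 635 at P0 and 879 and 908 CPM at W4, with calls both before birth (1.03 ± 0.09, 0.000381) and after (0.47 ± 0.09, 0.00673). In EnVL it stood at 425 and 500 CPM at P0 and at 320 and 323 CPM at W4 (-0.57 ± 0.15, 0.0262), a call lost without P0 replicate 2 (-0.42, 0.117), W4 replicate 1 (-0.54, 0.113), W4 replicate 2 (-0.59, 0.0810) or E16.5 replicate 1 (-0.57, 0.0536). Summed fibroblast markers in EnC were 32.6 CPM at E12.5, 259 at E13.5, 299 and 1140 at E16.5, 1773 and 2398 at P0 and 1390 and 1794 CPM at W4, and in EnVL they were 694 and 2189 CPM at P0 and 317 and 403 CPM at W4. Their part in these results was not tested. EnC held 1534557 and 1781308 UMIs of all genes in 159 and 177 cells at P0. At W4 it held 1604454 and 1629645 UMIs in 246 and 275 cells, fewer per cell, and CPM levels are relative to these totals.

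The exporter Spns2 was not called after birth in the endothelial subtypes, where its means over all ages were highest, and was called in pericytes and fibroblasts. In EnC it had 86.7 and 87.6 CPM at P0 and 118 and 112.9 CPM at W4 (0.35 ± 0.12, adjusted p = 0.0767, edgeR), in EnVL 153 and 130.8 CPM and then 209 and 188 CPM (0.44 ± 0.14, 0.0603), and in EnA 29.0 and 91.6 CPM and then 78.2 and 59.9 CPM (0.08 ± 0.39). Pericytes, in contrast, went from 0.844 and 0.898 CPM at E12.5 and E13.5 (1 and 2 UMIs) to 9.43 and 10.2 at E16.5, 16.4 and 19.6 at P0 and 105 and 106 CPM at W4 (248 and 195 UMIs), and the change after birth was 2.33 ± 0.13 (5.04-fold, 1.36e-07). At W4 the Pc level thus lay between those of EnA and EnC. Summed endothelial markers in Pc were 83.8 and 94.2 CPM at P0 and 113.2 and 118 CPM at W4, and summed pericyte markers 5635 and 5941 CPM and 11378 and 11507 CPM. Summed fibroblast markers in Pc were 3521 and 4589 CPM at P0 and 2858 and 3154 CPM at W4, and summed thymocyte markers 35.1 and 48.8 CPM and then 75.96 and 144.1 CPM. Summed epithelial markers were 5.53 and 9.43 CPM at P0 and 36.9 and 38.5 CPM at W4 in Pc and 3.37 and 9.12 CPM and then 27.6 and 43.01 CPM in EnC, and in EnA, EnVL, VSM, MedFb1a, MedFb1b and MedFb2a they were likewise higher in both W4 libraries than in both P0 libraries, with 5.36 to 27.2 CPM at W4. The part of these markers in the changes of these subtypes was not tested. In the sorted Ly51+gp38- cells, Spns2 had 0, 0.166 and 4.999 CPM (lowest, median, highest) at P0 and 0, 10.1 and 19.8 CPM at W4, a change that was not called (0.0744).

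Spns2 was also called higher in medullary fibroblasts. MedFb1b stood at 10.6 and 11.6 CPM at P0 and 61.1 and 60.2 CPM at W4 (2.41 ± 0.13, 5.30-fold, adjusted p = 1.87e-09, edgeR), and MedFb1a at 10.4 and 9.14 CPM and then 68.9 and 53.6 CPM (2.56 ± 0.24, 1.13e-07). MedFb2a (0.88 ± 0.14) and the capsular CapFb1b (1.73 ± 0.18) were also called. In the sorted gp38+CD26- cells Spns2 had 0, 1.71 and 27.6 CPM (lowest, median, highest) at P0 and 7.07, 10.04 and 17.7 CPM at W4, a change that was not called (0.97 ± 1.26, adjusted p = 0.816, edgeR). Summed endothelial markers in the same cells went from 44.0 and 50.6 CPM to 24.1 and 30.7 CPM in MedFb1b and from 33.8 and 37.5 CPM to 8.03 and 10.7 CPM in MedFb1a, while summed fibroblast markers went from 15205 and 15725 CPM to 27865 and 27893 CPM in MedFb1b and from 14153 and 15370 CPM to 25892 and 29096 CPM in MedFb1a. Summed thymocyte markers were 19.8 and 35.3 CPM at P0 and 46.8 and 92.3 CPM at W4 in MedFb1b, and 16.46 and 46.01 CPM and then 41.1 and 104.8 CPM in MedFb1a. Summed pericyte markers went from 679 and 868 CPM to 388 and 454 CPM in MedFb1b and from 732 and 838 CPM to 321 and 344 CPM in MedFb1a. The part of these markers in the results was not tested. S1pr3 went from 87.9 and 94.7 CPM to 239 and 222 CPM in MedFb1b (1.30 ± 0.09, 2.56e-08) and from 66.4 and 90.2 CPM to 215 and 223 CPM in MedFb1a (1.37 ± 0.14, 2.98e-07). In the mural cells it fell, in Pc from 96.0 and 80.9 CPM to 56.2 and 57.5 CPM (-0.82 ± 0.11, 0.000184) and in VSM from 95.6 and 120 CPM to 56.2 and 56.3 CPM (-0.997 ± 0.13, 0.00186). Summed pericyte markers in VSM were 4884 and 7484 CPM at P0 and 13733 and 15179 CPM at W4, and summed thymocyte markers 24.9 and 50.2 CPM and then 72.9 and 121.9 CPM. Their part in the S1pr3 and Plpp3 changes of VSM was not tested. The sorted Ly51+gp38- cells had a change of -0.69 ± 0.56 in S1pr3 that was not called over all groups, and of -0.74 ± 0.19 (0.0175) from these 2 groups alone.

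Plpp1 rose after birth in fibroblasts, and none of its changes in vessel cells was called. MedFb1b had 68.2 and 62.4 CPM at P0 and 358 and 372 CPM at W4 (2.46 ± 0.10, 5.51-fold, adjusted p = 1.36e-10, edgeR), MedFb1a 46.5 and 62.5 CPM and then 286 and 340 CPM (2.40 ± 0.15), and CapFb1b 62.5 and 59.1 CPM and then 281 and 307 CPM (2.26 ± 0.08). In EnA, EnC, EnVL, Pc and VSM its changes lay between -0.32 and 0.08, and none was called. Among capsular fibroblasts CapFb4 had a change in the other direction (-0.96 ± 0.23, 0.00261), which was not called without P0 replicate 1 (-0.49, 0.169). Plpp3 rose in 14 of 17 subtypes, most in MedFb2a, from 92.6 and 85.5 CPM to 233 and 243 CPM (1.42 ± 0.08, 2.62e-08), and in VSM, from 125.4 and 124.3 CPM to 309 and 323 CPM (1.28 ± 0.12, 0.000431). Summed fibroblast markers in MedFb2a were 10146 and 10171 CPM at P0 and 16757 and 18364 CPM at W4, and summed thymocyte markers 20.8 and 44.3 CPM and then 48.9 and 94.9 CPM. Summed pericyte markers there went from 1935 and 2019 CPM to 1244 and 1723 CPM, and summed endothelial markers from 80.3 and 92.0 CPM to 55.7 and 61.7 CPM. The part of these markers in the Plpp3 change was not tested. CapFb4, the subtype with its highest mean over all ages, went from 523 and 547 CPM to 1214 and 847 CPM (1.03 ± 0.11), and at P0 it stood below EnC.

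**Figure D3:**
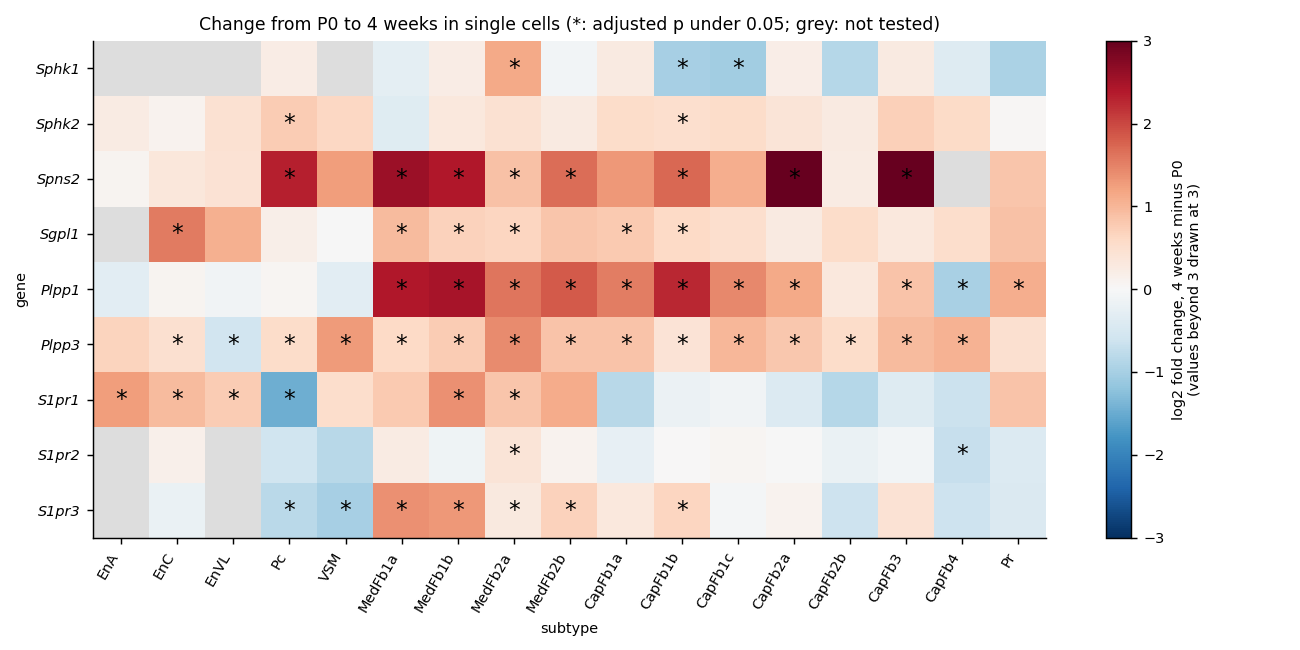
Change of the 9 S1P genes between P0 and W4 within 17 subtypes, as log2 fold change from edgeR, with colours limited to values between -3 and 3, a star for an adjusted p under 0.05 and grey for pairs below the filter on low counts. The Plpp3 row has 14 called rises and 1 called fall, Plpp1 is higher in most fibroblast subtypes and near 0 in endothelium, S1pr1 is higher in all 3 endothelial subtypes, and the colour of Spns2 in CapFb3 is a fitted value for a P0 group with 0 UMIs.

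Among the intracellular enzymes, Sgpl1 was called higher in 6 subtypes, by 0.60 to 1.55, and in none by DESeq2. In MedFb1b it went from 22.3 and 27.3 CPM to 39.4 and 43.6 CPM (0.70 ± 0.13, adjusted p = 0.000561, edgeR), and in EnC, with 7 to 26 UMIs in a P0 or W4 library, from 4.56 and 4.49 CPM to 16.2 and 11.7 CPM, a call lost without either P0 replicate or without W4 replicate 1 (1.32 to 1.58, 0.0733 to 0.101). Sphk1 fell in CapFb1b, from 25.5 and 32.2 CPM to 17.03 and 12.9 CPM (-1.003 ± 0.20, 0.00149), after a rise from 12.6 and 14.7 CPM at E16.5 (1.01 ± 0.15, 0.00051), and it rose in MedFb2a (1.14 ± 0.19). Its fall in CapFb1c (-1.05 ± 0.34, 0.0262) was not called without P0 replicate 2 (-0.66, 0.213) or W4 replicate 1 (-0.73, 0.202), nor by DESeq2 (0.403). S1pr2 was called in CapFb4 (-0.69 ± 0.15) and MedFb2a (0.39 ± 0.11), the latter not without P0 replicate 2 (0.26, 0.139) or W4 replicate 2 (0.34, 0.0868). Spns2 in CapFb3 was listed at 0 UMIs in both P0 libraries and is given no fold.

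Between the libraries labelled Tbx1+/-Crkl+/- and wild type, no member was called. Of 162 possible member tests in 18 subtypes, 92 passed the filter and 0 were called by edgeR, where 0.0481% of all tests were (56 of 116534). By DESeq2, too, 0 were called. Of the 92 tests, 6 had an unadjusted p under 0.05, a threshold at which chance alone gives a share of 0.05. Sgpl1 in McTEC had 404, 336 and 470 CPM in the libraries labelled as compound heterozygotes against 434, 544 and 344 CPM in those labelled wild type, a difference of -0.13 with a 95% interval of -0.73 to 0.48. S1pr1 in EnC had 368, 408 and 596 CPM against 559, 414 and 422 CPM (-0.03, -0.53 to 0.47), and Spns2 in EnC 65.6, 63.1 and 50.9 CPM against 81.7, 59.9 and 60.1 CPM (-0.16, -0.72 to 0.40). The groups overlapped in each. The smallest p belonged to S1pr1 in Pc, at 14.4, 15.8 and 23.5 CPM against 7.01, 3.86 and 9.05 CPM (7, 25 and 25 UMIs against 7, 6 and 29), a difference of 1.32 ± 0.39 with an adjusted p of 0.279 and no overlap of the libraries. Summed epithelial markers in Pc did not overlap between the labels either, at 326 to 543 CPM against 212 to 283 CPM, and summed endothelial markers were 146.8 to 236 CPM against 155.6 to 164.9 CPM. Summed thymocyte markers were 6.15 to 51.97 CPM against 6.87 to 16.07 CPM, and the part of these markers in the difference was not tested.

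Of 25 other genes of S1P and ceramide metabolism and signalling, 6 were higher and 2 lower in W4 CD31+ cells than in the mean of the other nonepithelial populations (background 25.1%, 11.8% higher and 13.3% lower), and 8 were higher and 0 lower at P0 (27.5%, 14.8% higher and 12.7% lower). The ceramidase Acer2, which frees sphingosine from ceramide, had 290, 436 and 768 CPM (lowest, median, highest) in P0 and 151.2, 186 and 437 CPM in W4 CD31+ cells, with W4 means of 1.26 to 9.41 CPM in the other 3 populations. S1pr4, a receptor known from lymphocytes, had 23.3, 29.3 and 54.5 CPM in W4 CD31+ cells and was listed at 0 in all W4 libraries of both fibroblast gates. Of the intracellular S1P phosphatases in W4 CD31+ cells, Sgpp2 had a mean above those of the other nonepithelial populations and Sgpp1 a mean below. Sgpp2 had 0, 7.11 and 20.5 CPM, with 2 of 6 libraries at 0, against W4 means of 0 to 0.936 CPM in the other nonepithelial populations. Sgpp1 had 0, 0.158 and 8.38 CPM there against W4 means of 24.1 to 30.1 CPM in the other populations. With age, CD31+ cells had 3 calls among the 25 (background 10.5%), in Sgpp2, Sgpp1 and Degs1. Degs1, the dihydroceramide desaturase, fell from 376, 648 and 776 CPM to 259, 358 and 473 CPM (-0.62 ± 0.20, adjusted p = 0.0325, edgeR). Sgpp1 fell by 2.32 ± 0.72 (adjusted p = 0.0250, edgeR), from 0.682, 5.58 and 64.7 CPM at P0 to 0, 0.158 and 8.38 CPM. Its ages overlapped, and its P0 mean of 14.6 CPM had an SD of 24.9 CPM. Sgpp2 was called higher from a P0 group with 5 of 6 libraries at 0.

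The genes whose pattern over the 14 bulk group means was most like that of a member, by Pearson's r of log2(mean CPM + 1) over 20417 genes, are given as a description. For S1pr1 they were Ifi213 (0.941), Selp (0.941), the P-selectin of endothelium, and Sox7 (0.929). Spns2 was most like Cd300lg (0.925), P2rx7 (0.923) and Hoxd3os1 (0.921). For Sgpl1 they were Snx16 (0.972), Kdf1 (0.963) and Tom1l1 (0.959), and for Plpp3 Thbd (0.921), the thrombomodulin of endothelium, Palm (0.912) and Tmem256 (0.912). S1pr2 was most like Thbs2 (0.956), Fbln1 (0.953) and Steap2 (0.942), and S1pr3 like Pygo1 (0.944), Rgma (0.941) and Meis1 (0.941). The others were Glmp (0.916), Leprot (0.903) and Sri (0.892) for Plpp1, Soat1 (0.869), Slc1a3 (0.869) and Sox9 (0.864) for Sphk1, and Trmt1l (0.923), Dop1b (0.915) and Mrpl1 (0.906) for Sphk2. The 14 groups share sort, age and library preparation and are not independent points.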

How the data were processed

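The single-cell files hold the authors' deposited UMI counts per gene and cell with their subtype names, made, per the submitters' processing notes, with Cell Ranger 3.1.0. Cells had been filtered by the authors (genes detected, mitochondrial share, predicted doublets), and no doublet caller was run here. The bulk file holds the authors' deposited read counts per gene, made with STAR 2.5.3a and HTSeq; builds mm10 and GRCh38 are listed without a role. Entries of no gene held 7.81 to 29.4% of bulk reads and were left out.

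UMI counts were summed per library and subtype (at least 20 cells). Counts were fitted with edgeR 4.0.16 (TMM scaling, filterByExpr, quasi-likelihood test) in R 4.3.3: 1 model over 83 bulk libraries, 1 per single-cell subtype. P-values were adjusted over all genes of a comparison. The fit functions were run on simulated counts modelled on the CD31+ bulk libraries and on EnC. The model over 83 bulk libraries was not simulated. Between-subtype levels were not tested. The 95% intervals are the estimate ± 1.96 SE.

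The members and lists were chosen with earlier results of these data known. All 9 members are named, with the 4 largest called changes among 25 other pathway genes in CD31+ cells (W4 against other populations, and with age) and the 3 genes most like each member. Alternatives were RLE scaling, DESeq2 1.42.0, no filter, all 84 libraries, library prefix, other cell minimums, summed classes, a replicate block and leaving out libraries. Depth per library limits genes with few counts, such as Spns2 in sorted cells outside endothelium.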

Additional observations from a re-analysis of the deposited data

Results flagged for a closer look

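The change between P0 and W4 differed between the 6 sorted populations for 4 members by edgeR's test of the interaction: Plpp1 (adjusted p = 1.12e-12), Plpp3 (8.12e-06), Sphk1 (0.0175) and S1pr3 (0.0247). Plpp1 was higher at W4 in gp38+CD26+ cells, gp38+CD26- cells and mTEC and lower in Ly51+gp38- cells.

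In 12 of 126 groups of a member, 1 library stood apart from the others of its group by Dixon's criterion at the 95% level, where chance gives about 6.3 (5%). The library highest in Plpp3 among P0 gp38+CD26- cells had 362.592 CPM, and that highest in S1pr1 among W4 gp38+CD26+ cells 9.95565 CPM. S1pr2 had a low library, at 120.849 CPM, among P0 gp38+CD26- cells and a high library, at 48.212 CPM, among P0 mTEC. S1pr3 reached 501.526 CPM in 1 W4 mTEC library. In CD31+ cells the apart libraries were those of Sgpl1 at P0 (149.162 CPM), Sphk1 at P0 (24.8873 CPM) and Sphk2 at W4 (89.6272 CPM). Spns2 had 1 high library in each of 4 P0 groups in which it was otherwise scarce, with 4.99871 CPM in Ly51+gp38- cells, 4.74343 CPM in cTEC, 4.49718 CPM in gp38+CD26+ cells and 27.596 CPM in gp38+CD26- cells.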

How the results depend on the processing

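RLE scaling, a prefix term and most other alternatives left the counts within 1.5 times those reported. The 13 bulk age calls became 6 within DFCK, where 3 libraries met 3, and 10 within TXCK, and were 11 to 12 without each gp38+CD26+ W4 library. Population calls were 42 to 45, epithelial calls 19 to 22 and interaction calls 4 or 5 under all alternatives run. With all 84 libraries, Sgpl1 in W4 gp38+CD26+ cells turned from -0.10 to 0.92 (adjusted p = 0.0423). In the age series, summing subtypes to classes, which makes fewer tests, gave 28 calls over all ages, 14 from E16.5 to P0 and 19 from P0 to W4. DESeq2 gave 16 from E16.5 to P0 and 39 from P0 to W4, and the cause was not tested. Leaving out 1 library gave 96 to 110 calls over all ages, 10 to 34 from E16.5 to P0 (10 and 13 without an E16.5 library) and 46 to 61 from P0 to W4. Genotype gave 1 call with no filter on low counts (S1pr1 in ItTEC, at 1 to 25 UMIs in a library) and 0 otherwise. In the single-cell sets, same-numbered replicates did not deviate together, so their numbers were not taken as pairs. With a replicate block there were 109 calls over all ages, 34 from E16.5 to P0, 62 from P0 to W4 and 0 for genotype. Bulk libraries were not checked for pairing between populations and were fitted without such a block. The subtype with the highest level stayed first for 6 to 9 of 9 members in either single-cell set.

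Plpp3 in newborn CapFb3 rests on 1 library, with 501 CPM, and had 303 CPM when 10 cells sufficed. Depth limits members with few counts: Spns2 in sorted cells outside endothelium, S1pr3 and Sphk1 in CD31+ cells, and 70 of 162 genotype tests that fell below the filter.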
